A study of Oryza sativa with 6 samples.

Results

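Homeobox genes of the KNOX and WOX families were compared between shoot apices of rice dsl1 plants (3 arrays) and of wild-type (WT) plants (3 arrays). DSL1, short for DWARF WITH SLENDER LEAF1, encodes a histone deacetylase, an enzyme that removes acetyl groups from histone tails. Each apex held the shoot apical meristem with its youngest leaf primordia, was taken as the tip of the fifth leaf emerged, and came from plants grown in soil. The sources used here name neither the dsl1 allele nor the parental strain nor the number of plants behind a sample. A gene was included when its symbol or a synonym in the rice gene reference was OSH1, OSH15, OSH71, OSH45, WOX4, WOX6, WOX7 or WOX9 and a transcript cluster, a group of probes read as 1 transcript, was paired with that gene alone. All 8 genes met this rule, of 15140 genes with such a cluster, and each had exactly 1 cluster. They were LOC4333973 (OSH1), LOC4342320 (OSH15), LOC4337701 (OSH71), LOC4345191 (OSH45), LOC4337218 (WOX4), LOC4332705 (WOX6), LOC4326320 (WOX7) and LOC4324824 (WOX9). No coordinates are printed, since the genome build behind the array is not given.

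KNOX proteins are transcription factors of the TALE homeodomain group and fall into classes I and II. Class I genes are active in the meristem, are shut off where a leaf is founded, and keep cells undetermined by raising cytokinin and lowering gibberellin. Class II genes are expressed more widely, also in differentiating organs. WOX proteins form a separate homeodomain family whose members act in stem cell niches of shoot and root and in lateral organs. In rice, OSH1 and WOX4 are each needed to maintain the shoot meristem.

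Levels are log2 values, so a difference of 1 is a doubling, and differences are dsl1 minus WT. Every test is limma's moderated test over all 54922 clusters with Benjamini-Hochberg adjustment, called at an adjusted p under 0.05. Array medians lay between 5.30 and 5.40. Correlations over all clusters were 0.9796 to 0.9806 within dsl1, 0.9704 to 0.9795 within WT and 0.9621 to 0.978 between genotypes, so some WT pairs were no closer than pairs across genotypes. No label says that replicates were separate plants, and p-values therefore reflect the spread of these samples only, which may be technical. In bulk tissue, fewer cells of a type and less RNA per cell cannot be told apart.

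None of the 8 genes differed between genotypes at the adjusted threshold, where 0.0255% of all clusters and 0.0396% of genes with 1 cluster each were called. OSH71 and OSH15 had the largest positive differences, 1.48-fold and 1.28-fold, and OSH45 and WOX4 the largest negative ones, at 0.816 and 0.825 of the WT level. An unadjusted p under 0.05 in limma was reached by 2 of the 8 on the higher side, OSH71 and OSH15, and by 0 on the lower side. The same threshold took in 6.06% of all clusters as higher and 5.7% as lower, or 9.46% and 5.52% of genes. The median difference was 0.102 over the 8 genes, -0.0289 over all clusters and 0.0185 over all genes. The smallest adjusted p among the 8 was 0.392.

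**Figure D1:**
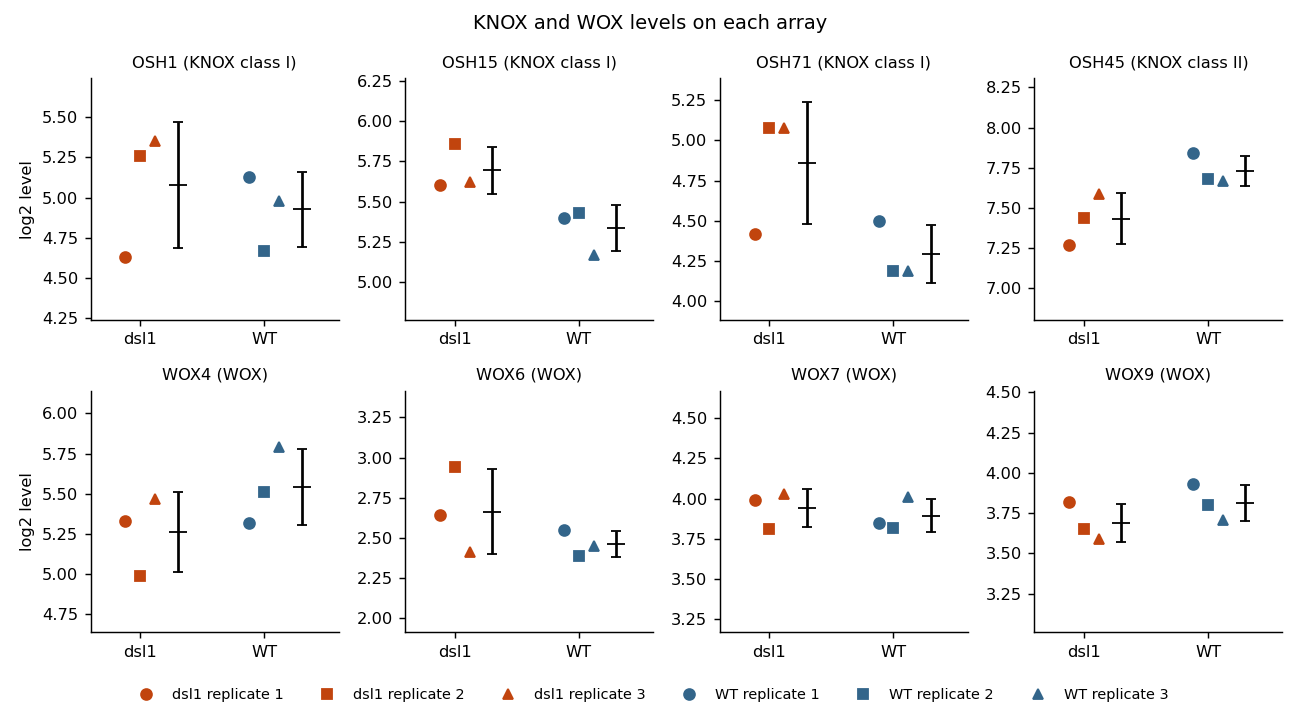
Log2 level of each gene (y axis, a window of equal height in every panel) in dsl1 (left) and WT (right). Symbols are single arrays and bars the mean with SD of 3 arrays. OSH15 lies wholly higher and OSH45 wholly lower in dsl1, and the 2 groups overlap in the other 6 genes.

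Among the class I KNOX genes, OSH1 is the rice counterpart of maize KNOTTED1. Its levels were 4.63, 5.26 and 5.35 in dsl1 replicates 1 to 3 and 5.13, 4.67 and 4.98 in WT replicates 1 to 3. The lowest of the 6 values was thus a dsl1 array and the 2 highest were also dsl1 arrays, so the groups overlapped. OSH1 averaged 5.08 ± 0.395 in dsl1 and 4.93 ± 0.234 in WT (SD, n = 3 each), a difference of 0.15 (SE 0.23) with a limma adjusted p of 0.827. The 95% interval ran from -0.39 to 0.70, or 0.762-fold to 1.62-fold, and thus held differences of either sign.

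OSH15 acts in meristem and stem, and its loss shortens the internodes of rice. It stood at 5.60, 5.86 and 5.62 in dsl1 and at 5.40, 5.43 and 5.17 in WT. All dsl1 values lay above all WT values, with 0.17 between the nearest pair. The means were 5.69 ± 0.145 in dsl1 and 5.34 ± 0.142 in WT (SD, n = 3 each). The difference of 0.35 (SE 0.143, 95% interval 0.016 to 0.69) did not pass (limma adjusted p = 0.41, unadjusted p = 0.0425).

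OSH71, another class I gene, had levels of 4.42, 5.08 and 5.08 in dsl1 and of 4.50, 4.19 and 4.19 in WT. Replicates 2 and 3 of dsl1 exceeded every WT array, while dsl1 replicate 1 lay below WT replicate 1. The means were 4.86 ± 0.379 in dsl1 and 4.29 ± 0.176 in WT (SD, n = 3 each). The difference of 0.57 (SE 0.215, 95% interval 0.0604 to 1.08) did not pass (limma adjusted p = 0.392, unadjusted p = 0.0332), although only 7.69% of all clusters differed by more in size. OSH71 lay in the second dimmest of 5 equal groups of clusters by mean level, a group whose median difference was -0.0655. No detection calls were given, so whether its transcript rose above background cannot be read from these values.

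The low values of OSH1 and OSH71 in dsl1 fell on the same array, replicate 1. Without it the OSH1 difference was 0.38 (SE 0.188, limma adjusted p = 0.599) and that of OSH71 was 0.79 (SE 0.168, limma adjusted p = 0.438). On this array OSH15 was also the lowest of the dsl1 values, at 5.60 against 5.62 in replicate 3, and still above every WT array. OSH45, too, was at its lowest of the 6 arrays there, at 7.27 against 7.44 in dsl1 replicate 2. LOG, the cytokinin-activating enzyme of the shoot meristem tip, was not low there. It was at 9.19 in dsl1 replicate 1, 8.20 and 9.30 in the other dsl1 arrays and 8.76, 7.98 and 8.62 in WT. FON1, a receptor kinase gene and likewise a shoot meristem marker, was at its lowest of the 6 arrays there. It stood at 5.07, against 5.12 in WT replicate 1. The part of this array in the spread of OSH1 and OSH71 was not tested further.

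OSH45 is the class II KNOX gene of the set. Its levels were 7.27, 7.44 and 7.59 in dsl1 and 7.84, 7.68 and 7.67 in WT. Every dsl1 value lay below every WT value, with only 0.08 between the nearest pair. The means were 7.44 ± 0.16 in dsl1 and 7.73 ± 0.0935 in WT (SD, n = 3 each), and the difference of -0.29 (SE 0.138, 95% interval -0.62 to 0.0337) did not pass (limma adjusted p = 0.466, unadjusted p = 0.0715). It lay in the brightest of the 5 groups, where the median difference was 0.0307. Of the 8 genes, 1 was higher and 1 lower without overlap between groups, against 9.15% and 10.2% of all clusters and 15% and 9.33% of genes.

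Class I and class II were then set against each other within each array, as the mean log2 level of OSH1, OSH15 and OSH71 minus the level of OSH45. Only the shift of this quantity between genotypes is meaningful, since levels of different probes cannot be compared. It was -2.39, -2.04 and -2.24 in dsl1 and -2.83, -2.92 and -2.89 in WT, with no overlap. The means were -2.23 ± 0.175 in dsl1 and -2.88 ± 0.0471 in WT (SD, n = 3 each), a shift of 0.65. No p is given, because the quantity was built from genes chosen with earlier results known.

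The shift was smaller against class II as a whole. The 3 other measured class II genes, HOS58, HOS59 and HOS66, were all on the higher side in dsl1. HOS58 stood at 6.20, 6.15 and 6.11 in dsl1 and 5.93, 5.81 and 5.59 in WT, a difference of 0.37 (SE 0.136, limma adjusted p = 0.385) close to that of OSH15 in size and again without overlap. HOS59 differed by 0.22 (95% interval -0.16 to 0.61) and HOS66 by 0.15 (95% interval -0.27 to 0.57), at adjusted p of 0.62 and 0.77 in limma. With all 4 class II genes averaged, class I minus class II was -2.69, -2.09 and -2.26 in dsl1 and -2.52, -2.69 and -2.56 in WT. The groups then overlapped and the shift was 0.25. The mean of the 3 class I genes differed by 0.36 and that of the 4 class II genes by 0.11.

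**Figure D2:**
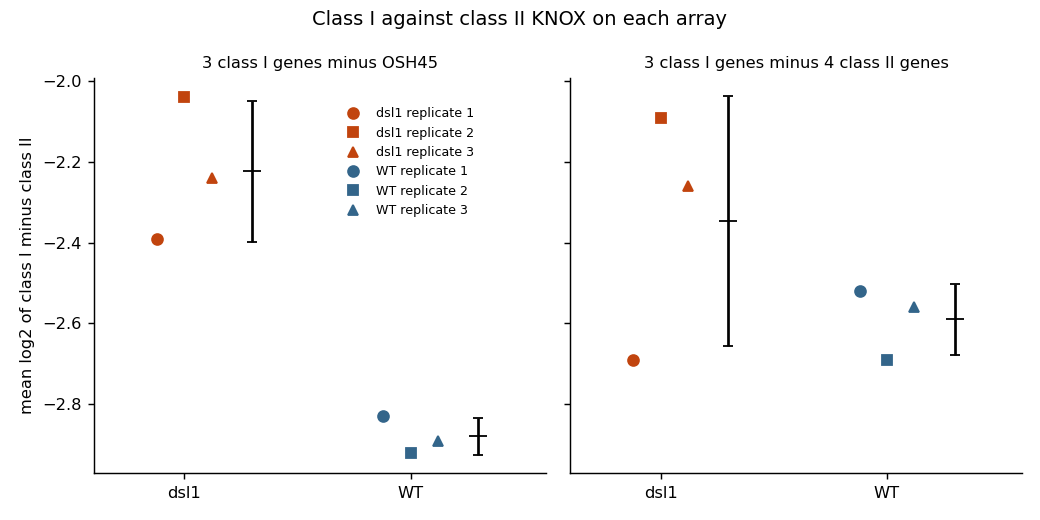
Mean log2 level of OSH1, OSH15 and OSH71 minus that of class II KNOX genes (y axis) on each array, dsl1 left of WT, with mean and SD of 3 arrays. Against OSH45 alone the groups do not overlap, and their means differ by 0.65. Against all 4 measured class II genes they overlap, with a shift of 0.25.

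Over the whole family, 7 of the 11 KNOX genes found by symbol were measured; OSH3, OSH6, OSH10 and OSH43 had no cluster paired with them alone and are not analysed here. Of the 7, 6 were higher and OSH45 was lower, against 8020 higher and 7120 lower of 15140 genes, with a median difference of 0.225. OSH71, HOS58 and OSH15 had an unadjusted p under 0.05 on the higher side, where 9.46% of all genes lay, and 0 of the 7 passed in limma after adjustment. The sources used here do not say whether probes for 1 KNOX gene also bind transcripts of a relative.

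**Figure D3:**
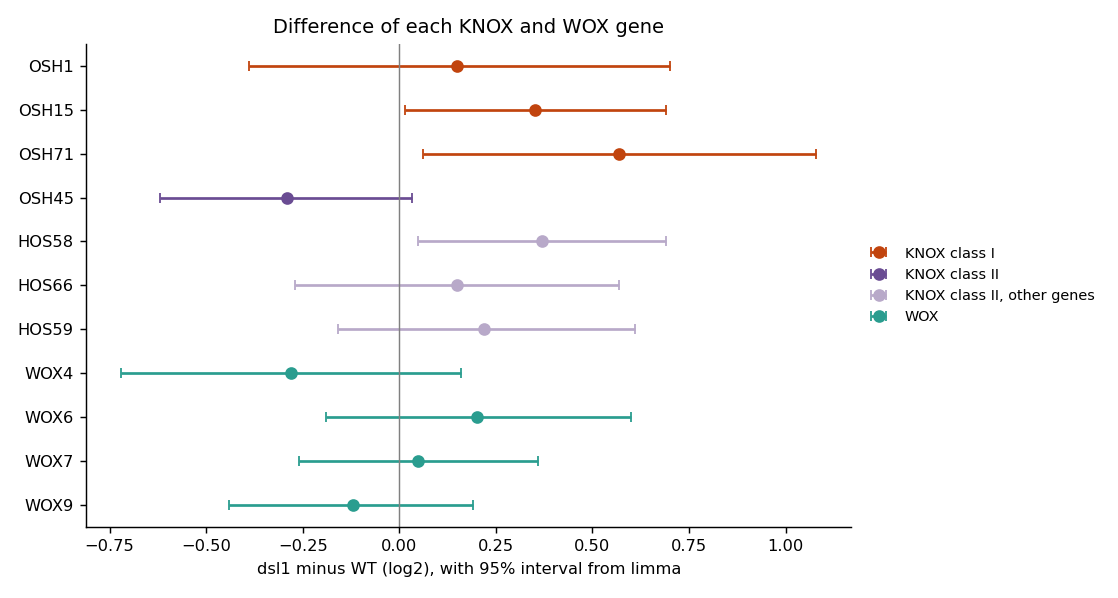
Difference of dsl1 minus WT on the log2 scale (x axis) for each measured KNOX and WOX gene, with 95% intervals from limma (n = 3 arrays each). The intervals of OSH15, OSH71 and HOS58 lie above 0 and those of the other 8 genes include 0.

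Among the WOX genes, WOX4 promotes maintenance of the shoot meristem and is held in check by the peptide FCP1. Its levels were 5.33, 4.99 and 5.47 in dsl1 and 5.32, 5.51 and 5.79 in WT. The lowest value was a dsl1 array and the highest a WT array, but dsl1 replicates 1 and 3 lay within the WT range and the groups overlapped. WOX4 averaged 5.26 ± 0.242 in dsl1 and 5.54 ± 0.236 in WT (SD, n = 3 each). The difference was -0.28 (SE 0.186, 95% interval -0.72 to 0.16, limma adjusted p = 0.594).

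WOX6 acts with a related gene in the gravitropic growth that sets tiller angle. It was at 2.64, 2.94 and 2.41 in dsl1 and 2.55, 2.39 and 2.45 in WT, and dsl1 replicate 2 was the 1 value that stood above the rest. The difference was 0.20 (SE 0.166, 95% interval -0.19 to 0.60, limma adjusted p = 0.664). WOX6 lay in the dimmest of the 5 groups, whose mean level was 2.806, so its level may not rise above background and the difference says little.

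WOX7 had nearly the same levels in both genotypes, at 3.99, 3.81 and 4.03 in dsl1 and 3.85, 3.82 and 4.01 in WT. Its difference of 0.0492 (SE 0.131) had a 95% interval from -0.26 to 0.36, or 0.835-fold to 1.28-fold (limma adjusted p = 0.908). This was the narrowest interval of the 8 genes, and 85.2% of all clusters differed by more in size.

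The gene named WOX9 here is also listed as QHB and WOX5, and QHB marks the quiescent centre of the root. Rice WOX numbers differ between sources, so the WOX7 and WOX9 values stand for LOC4326320 and LOC4324824 whatever other numbers these genes carry. It was at 3.82, 3.65 and 3.59 in dsl1 and 3.93, 3.80 and 3.71 in WT, with overlap between the groups. The difference was -0.12 (SE 0.133, 95% interval -0.44 to 0.19, limma adjusted p = 0.746). WOX7 and WOX9 both lay in the second dimmest group, whose mean level was 4.265. The table holds no detection calls, so whether these transcripts were present in the apex cannot be read from it.

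Of the 8 WOX genes found by symbol, 4 were measured; the genes listed as WOX8, WOX10 and WOX11, and a separate gene listed as WOX5, are not analysed here. Of the 4, 2 were higher and 2 lower, with a median difference of -0.0376. None had an unadjusted p under 0.05 in limma, against 9.46% of all genes on the higher side and 5.52% on the lower. The class I KNOX means lay above WT and the WOX4 mean below it, but of these 4 genes only OSH15 and OSH71 had intervals to 1 side of 0.

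Across single arrays, OSH15 and WOX4 ran against each other (Pearson r = -0.888 over 6 arrays), while OSH1 and OSH71 ran together (0.798), also after the mean of each genotype was taken out (-0.902 and 0.942). After that step OSH45 of class II also ran with OSH1 (0.869) and OSH71 (0.905), against 0.265 and -0.272 before it. OSH15 and WOX7 then stood at -0.982, against -0.297 before. These are descriptions of pairs picked from 28 over the same 6 arrays, chosen after their values were seen, and carry no test. The genes with a common symbol whose levels followed OSH15 most closely, of 1714 compared, were the potassium transporter gene HAK23 (r = 0.974), the autophagy gene APG8C (0.9711) and the ubiquitin-like NEDD8 (0.967). For WOX4 they were the MAP kinase gene MPK2 (0.9792), SLP16, also listed as SPL16 (0.9776), and DGAT1-2 of oil synthesis (0.9717). For OSH1 they were the telomerase gene OsTERT (0.945), EF-Gmt (0.9397) and BIP119, also listed as BKI1 (0.9222). Genotype means were not taken out here, so a shared genotype difference can raise r. HAK23, APG8C and NEDD8 differed by 0.30, 0.36 and 0.48 between genotypes, and MPK2, SLP16 and DGAT1-2 by -0.19, -0.30 and -0.22. OsTERT, EF-Gmt and BIP119 differed by 0.0504, 0.12 and 0.00351. All these genes were picked as the highest of many over few arrays. Of the 1714 genes, 37, 11 and 5 exceeded 0.9 for OSH15, WOX4 and OSH1, and 24, 9 and 5 lay below -0.9.

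**Figure D4:**
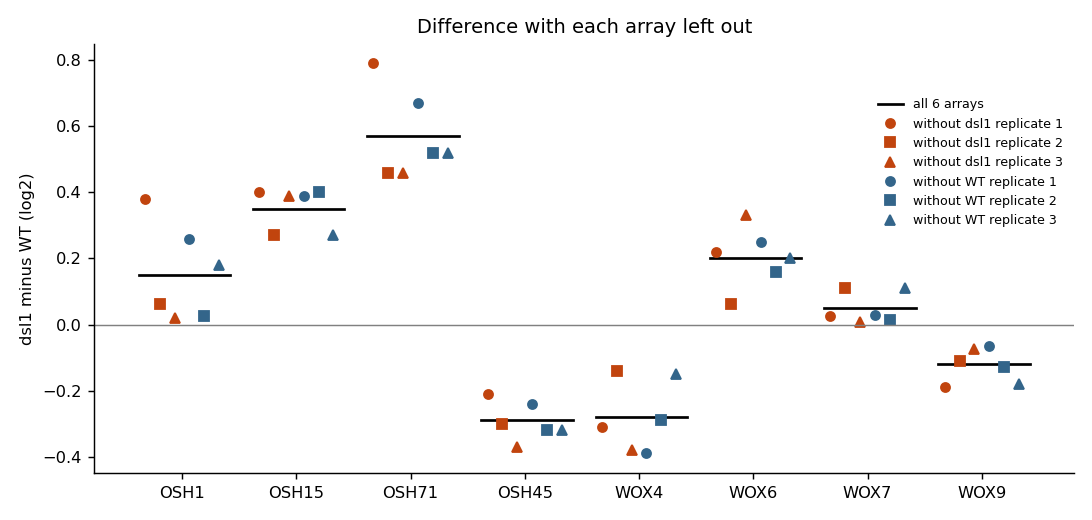
Difference of dsl1 minus WT (y axis, log2) for each gene with all 6 arrays (line) and with each array left out (symbols). No gene changed sign, and OSH1 ranged from 0.019 to 0.38 and OSH71 from 0.46 to 0.79.

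Genes that act with KNOX and WOX proteins were described from lists matched by symbol. In the CLAVATA pathway, which limits stem cell number, the receptor kinase gene FON1 differed by -0.0796 and the peptide gene FOS1 by 0.0498 (limma adjusted p = 0.866 and 0.945). FON1 was at 5.07, 5.26 and 5.35 in dsl1 and 5.12, 5.45 and 5.35 in WT. Both genes overlapped between genotypes.

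Cytokinin genes were followed in 2 lists. Of 17 measured signalling genes, 12 were higher and 5 lower, against 8020 and 7120 of all 15140 genes, with a median difference of 0.293 against 0.0185 over all genes. An unadjusted p under 0.05 was reached by 3 on the higher side and 0 on the lower, against 9.46% and 5.52% of all genes, and none passed in limma after adjustment. HK5, a cytokinin receptor, was at 6.95, 7.04 and 6.97 in dsl1 and 6.42, 6.44 and 6.49 in WT. The gap of 0.46 between its groups was wide against the spread within either, but the difference of 0.54 had a limma adjusted p of 0.242. The type-B response regulators ORR4 and ORR1, which switch on cytokinin targets, differed by 0.59 and 0.42 (limma adjusted p = 0.30 and 0.357). Of 9 measured genes of cytokinin activation and breakdown, 5 were higher and 4 lower, near the split over all genes, with a median of 0.114. CKX4, which degrades cytokinin, differed by 0.80 (limma adjusted p = 0.406), and LOGL3 and LOGL10 of the activating family by 0.55 and -0.27.

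Of the enzymes of gibberellin and brassinosteroid metabolism, 4 were measured. CYP734A2 and CYP734A6 encode brassinosteroid-inactivating enzymes, and both genes are known to be activated by OSH1 in rice. CYP734A2 was at 5.97, 6.12 and 5.66 in dsl1 and 5.40, 5.58 and 5.54 in WT, a difference of 0.41 (limma adjusted p = 0.395). CYP734A6 was at 6.28, 5.55 and 6.69 in dsl1 and 6.40, 6.36 and 6.48 in WT and differed in the other direction, by -0.24 (limma adjusted p = 0.766), with overlap between the groups. GA20OX3, a gibberellin synthesis gene, differed by 0.35 (limma adjusted p = 0.549).

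Leaf primordium and boundary genes differed by -0.25 to 0.25, with a median of -0.0484 against 0.0185 over all genes. Of the 12, 5 were higher and 7 lower, against 8020 and 7120 of all genes. An unadjusted p under 0.05 in limma was reached by 0, against 9.46% of all genes on the higher side and 5.52% on the lower. RS2, whose maize counterpart keeps KNOX genes off in leaves, differed by 0.25, DL, a midrib gene of the YABBY family, by -0.25, and YAB5, also listed as OsYAB3, by -0.22. Their limma adjusted p were 0.529, 0.592 and 0.618. Among 24 homeobox genes of other families, 18 were higher and 6 lower, against 8020 and 7120 of all genes, with a median of 0.15 against 0.0185. An unadjusted p under 0.05 was reached by 4, all on the higher side, where 9.46% of all genes lay. HOX10 and Hox9 of this list were also counted among the leaf primordium and boundary genes, as hb1 and HB2. HOX6 and HOX24, of the HD-Zip class linked to water stress, differed by 0.82 and 1.06, and HOX7 by 0.33 (limma adjusted p = 0.284, 0.333 and 0.385). The median of the KNOX list, 0.225, thus lay between those of cytokinin signalling and of the other homeobox genes; the difference between these lists was not tested.

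**Figure D5:**
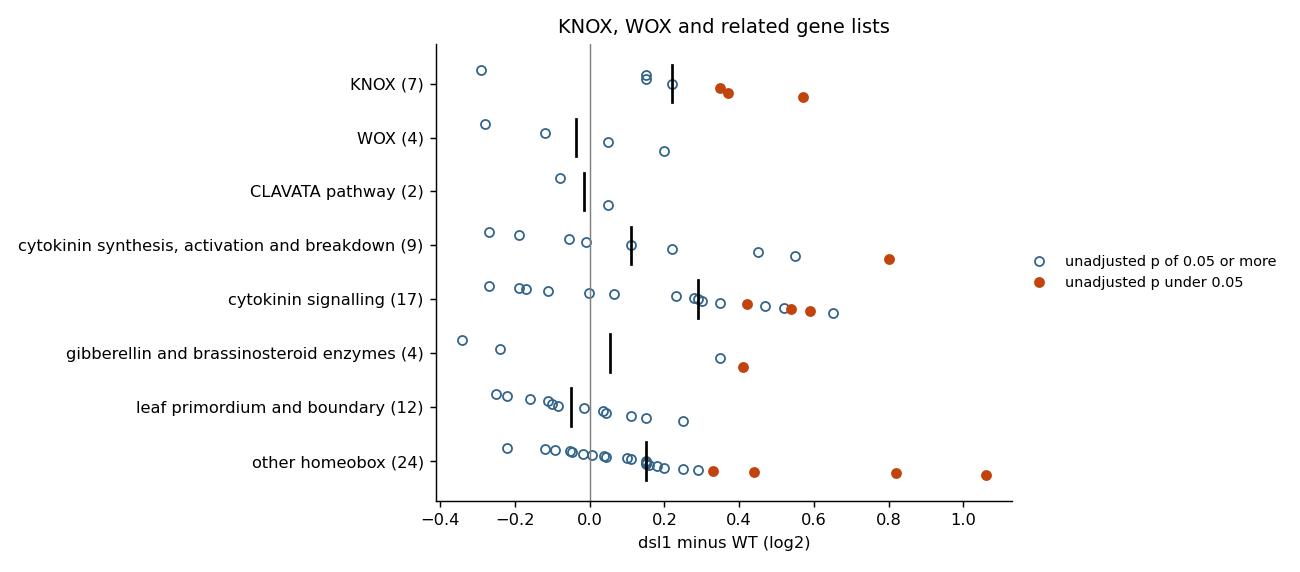
Difference of dsl1 minus WT (x axis, log2) for the measured genes of each list (number in brackets), with the list median as a bar. HOX10 and Hox9 appear both among leaf primordium and boundary genes and among other homeobox genes. Filled points have an unadjusted p under 0.05 in limma; none passed after adjustment, and the medians run from -0.0484 for leaf primordium and boundary genes to 0.293 for cytokinin signalling.

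Markers of the tissues an apex sample can hold were followed beside the class I genes. Of 8 shoot meristem markers 5 were measured, 3 of them the class I genes themselves, and their mean log2 level was 5.78 to 6.14 in dsl1 and 5.54 to 5.78 in WT. Of 9 leaf primordium markers 7 were measured, at 6.35 to 6.52 in dsl1 and 6.38 to 6.65 in WT. For 4 of 6 green leaf markers the means were 8.30 to 8.78 in dsl1 and 8.57 to 8.90 in WT. For 3 of 5 inflorescence markers they were 4.07 to 4.18 in dsl1 and 4.22 to 4.67 in WT, where MADS18 differed by -0.73 (limma adjusted p = 0.193) and MADS34 was in the dimmest group. For 2 of 5 root markers, 1 of them WOX9, they were 4.52 to 4.61 in dsl1 and 4.70 to 4.74 in WT. For 3 seed markers they were 4.67 to 4.83 in dsl1 and 4.98 to 5.13 in WT. All 3 seed markers were lower, with GLUB2 in the dimmest group. GLUA1 and GluB5 differed by -0.40 and -0.42 (limma adjusted p = 0.362 and 0.342). Thus 2 of the 3 were lower without overlap, against 9.33% of all genes. No member of these lists passed in limma after adjustment, and the share of each tissue in the KNOX and WOX differences was not tested.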

How the data were processed

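The log2 values of 54922 clusters were used as deposited by the authors, from 1-colour whole-transcript arrays, 1 per sample; all 6 value columns belonged to the 6 samples, grouped by the genotype in their titles. The submitters' processing notes name Affymetrix Expression Console 1.3, while the sources used here do not give its normalisation, its summarisation or the genome build. Precision is limited by the number of arrays. The platform's gene table paired 15829 clusters with 1 gene, and all 15140 genes matched the rice gene reference (assembly ASM3414082v1), used for names only; of several clusters, the one with the highest mean stood for a gene.

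Differences were fitted with lmFit and eBayes of limma 3.58.1 under R 4.3.3 (2-sided, no block) and adjusted over all clusters; the fit was tested on simulated data. Members and lists were chosen with earlier results of these data known, and no list was tested. The genes named were the 8 members and the other measured KNOX and WOX genes. Of each other list except the marker lists, the 3 genes with the smallest unadjusted p were named. For OSH1, OSH15 and WOX4 the 3 genes most correlated with them were also named. LOG and the MADS and seed genes of the marker lists were named after their values were seen. From the lists, 8 false or doubled symbol matches were left out, and no BEL1-type partner of KNOX proteins remained. Deviations from genotype means had r of -0.0644, -0.125 and -0.0516 between arrays of the same replicate number. Between arrays of different numbers r ran from -0.147 to 0.198. With 3 arrays per genotype, whose deviations sum to 0, these values cannot show whether the numbers pair the arrays. The main fit had no block because no label says that they do. Alternatives were quantile normalisation again, median centring, filters on clusters, other variance settings, array weights, the replicate block and leaving out each array.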

Additional observations from a re-analysis of the deposited data

How the results depend on the processing

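With 3 arrays in each genotype, the 95% intervals of the 8 genes reached down to 0.608-fold (WOX4) and up to 2.11-fold (OSH71). WOX6, WOX7 and WOX9 are further limited by low signal. OSH71 lay in the same second dimmest group as WOX7 and WOX9, although it stayed in when the dimmest 33.3% of clusters were left out. Over 15 alternatives, 117 values of the 8 genes kept their direction and their side of the threshold, and 0 changed sign. Their limma adjusted p lay between 0.23 and 0.992. WOX6, WOX7 and WOX9 fell out when the dimmest 33.3% of clusters were left out, and a mean over several clusters was not run because each gene has 1.

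With 1 array left out, the differences ranged from 0.019 to 0.38 for OSH1, 0.27 to 0.40 for OSH15, 0.46 to 0.79 for OSH71, -0.37 to -0.21 for OSH45, -0.39 to -0.14 for WOX4, 0.0631 to 0.33 for WOX6, 0.00636 to 0.11 for WOX7 and -0.19 to -0.0651 for WOX9. The count of members with an unadjusted p below 0.05 on the higher side, 2 with all arrays, became 0 to 1, and all 14 called clusters became 0 to 8. The class I minus OSH45 shift of 0.65 ranged from 0.56 to 0.74, and was 0.25 against all 4 class II genes. With the replicate block, which leaves fewer residual degrees of freedom, 0 members reached that p on the higher side and 1 cluster of all was called. On quantile normalisation 1 member, OSH45, reached that p on the lower side (-0.35, limma adjusted p = 0.407); the cause was not tested. Fitting only the 15829 gene-paired clusters called 75, with no member among them. Leaving out the 7793 rows before the first of them called 52, again with no member. Fewer clusters were tested in each, and the moderated variance moved as well. The SE of OSH71 was 0.205 and 0.206 in these fits, against 0.215 in the main fit. What raised the counts was not tested.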
